A study of Homo sapiens with 12 samples.

Results

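Potassium channel genes were described in a pair of human neuron types by RNA-seq. They were taken as the rows of the deposited tables whose gene symbol starts with KCN and holds no hyphen. The rule found 87 symbols, on 89 Ensembl identifiers, among 18623 symbols listed in either table. Of these, 77 were listed in the iMN table and 87 in the i3N table. The GENCODE 44 annotation holds 96 protein-coding KCN genes, of which 10 had no row in either table and are not analysed here (KCNA10, KCNG4, KCNJ10, KCNJ13, KCNJ18, KCNK16, KCNK17, KCNK18, KCNU1 and KCNV2). KCNMB3P1, a pseudogene of the BK channel subunit gene KCNMB3, was the only noncoding member.

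The iMNs were motor neurons made from iPSCs with small molecules and sorted by FACS for a Td-Tomato reporter driven by the HB9 promoter. The i3Ns were neurons made from H1, an established human ES cell line, by inducible expression of the transcription factor NGN2, and the labels call them cortical neurons. Each cell type was transduced with lentivirus carrying an shRNA against SMN1 and SMN2 (SMN-KD) or a scrambled shRNA (SCR), and RNA was taken after 12 days from 3 SCR and 3 SMN-KD libraries, 12 libraries in all. A single stem cell line stood behind each neuron type, and cell type, line, protocol and handling cannot be told apart. No library of either cell type was free of an shRNA vector. For each cell type the authors deposited 1 mean normalized count per gene over its 6 libraries, SCR and SMN-KD together. The values below are therefore the authors' means, without values per library, SD or a test, and the response to SMN-KD and the knockdown itself are not reported.

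Potassium channels let potassium leave the cell and so pull the membrane toward its resting voltage. Voltage-gated channels (Kv) open on depolarization and end the action potential, inward rectifiers and two-pore-domain channels set the resting potential, and calcium- or sodium-activated channels follow the spike. The pore is built from KCN subunits that assemble as tetramers, or as dimers in two-pore-domain channels, and auxiliary subunits adjust their gating and their traffic to the membrane. In neurons the mixture of these subunits shapes spike width, firing rate and excitability.

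To compare genes within a table, each mean was divided by the length in kb of the gene's representative transcript and scaled so that the genes of a table sum to 1000000. This value is called the level. To compare a gene between cell types, the log2 ratio of the i3N mean to the iMN mean was taken after each table was divided by its total, with 1 added to each mean, for genes listed in both tables with a mean of at least 100 in 1 of them. A ratio past 4-fold was the threshold for calling a member higher in 1 cell type, because no spread between replicates was at hand to set one. In bulk RNA a gene expressed by fewer cells cannot be told apart from one with less RNA per cell.

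The labelled cell types were checked against their markers before the channels were read. The 8 pan-neuronal genes, including MAP2 and TUBB3, had levels of at least 10 in both tables, as did 64.3% of all genes in iMNs and 56.1% in i3Ns. Past 4-fold, 1 of them was higher in i3Ns (NEFM, at 953 in iMNs and 6587 in i3Ns) and 0 in iMNs. Within 4-fold, SYN1 (545 and 171) and SNAP25 (647 and 170) were higher in iMNs and NEFL (2403 and 7028) was higher in i3Ns. Most motor neuron transcription factors of the marker list (MNX1, ISL1, ISL2, LHX3 and LHX4) were lower in the iMN table than in the i3N table, while FOXP1 was higher in iMNs, at 56.2 against 16.5. MNX1, the HB9 gene whose promoter drove the sort, had a level of 14.2 in iMNs and 75.1 in i3Ns, and ISL1 had 50.1 and 430. Of 12 motor neuron markers, 5 were past 4-fold higher in i3Ns and 0 in iMNs, against 3.19% and 4.4% of all genes. ISL2 and LHX3 passed the filter through the i3N table alone, on iMN means of 70.6 and 15.1. The cholinergic transporters SLC5A7 and SLC18A3 were higher in iMNs, at 118 against 34.4 and 93.1 against 55.7, and CHAT was at 7.25 and 7.16. The vesicular glutamate transporters SLC17A6 and SLC17A7 had levels of 221 and 158 in i3Ns and 11.7 and 1.22 in iMNs, and SLC17A8 ran the other way, at 0.134 in i3Ns and 19.4 in iMNs. POU4F1, a sensory neuron factor, had 208 in i3Ns and 0.385 in iMNs. Of 5 progenitor markers with a ratio, VIM, NES, MKI67 and TOP2A were past 4-fold higher in i3Ns, and PAX6 was at 6.15 in iMNs and 2.67 in i3Ns. MKI67 and TOP2A passed the filter through the i3N table alone, on iMN means of 28.3 and 22.5. The 7 progenitor markers summed to 200.3 in iMNs and 1618 in i3Ns, mostly from VIM (113 and 1222) and NES (78.2 and 383), and SOX2 was at 1.55 and 1.11. The pluripotency gene LIN28A was at 76.3 in i3Ns and 3.89 in iMNs. The other genes of the pluripotency list, POU5F1, NANOG and DPPA4, were listed in i3Ns only, at 0.708, 0.107 and 4.97. Astrocyte markers GFAP and AQP4, oligodendrocyte marker SOX10 and microglial markers AIF1 and CSF1R were listed in neither table. Other genes of the glial lists were present, with SLC1A2 at 59.8 in iMNs and 43.1 in i3Ns, OLIG1 at 1.83 and 5.67, OLIG2 at 0.601 and 10.5 and PDGFRA at 0.296 and 1.19, and the microglial genes CX3CR1 and PTPRC were listed in i3Ns only, at 0.138 and 0.0813. MBP had a mean of 329 in iMNs and 949 in i3Ns. The mesenchymal markers summed to 43.3 in iMNs and 119 in i3Ns. Of 5 with a ratio, 1 was past 4-fold higher in i3Ns and 0 in iMNs. That gene was ACTA2, at 4.32 and 31.1, which passed the filter through the i3N table alone. COL1A1 was at 16.1 and 51.5, and COL1A2 ran the other way, at 9.75 and 8.67. The part of these differences in the channel values was not tested. The names iMN and i3N are used below for the tables so labelled.

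Potassium channel genes made up 0.225% of the summed mean normalized counts in iMNs and 0.154% in i3Ns. The summed level of the members was 1246 in iMNs and 843 in i3Ns. Most members were weakly expressed in both. Their median level was 6.19 in iMNs and 2.02 in i3Ns, against 20.7 and 15.1 over all genes. Of the 76 members with a level in iMNs, 27 (35.5%) reached 10, while 64.3% of all genes did. In i3Ns 25 of 86 (29.1%) reached 10, against 56.1% of all genes. A level of 50 was reached by 7 members (9.21%) in iMNs and by 4 (4.65%) in i3Ns. Among all genes such levels were more common. KCND2, at 61.0 in iMNs, was above only 77.2% of all genes, and KCNB2, at 53.3 in i3Ns, above 76.6%. KCNH1, which encodes the EAG1 channel, sits on an identifier outside the annotation and has means but no level.

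High levels in iMNs were seen for KCNK9 (105), KCNK3 (88.3), KCNC1 (80.8), KCNH2 (79.5), KCNIP4 (63.7), KCND2 (61.0), KCND3 (44.2), KCNMA1 (37.3) and KCNC4 (29.8). In i3Ns they were seen for KCNH2 (67.9), KCNIP4 (55.2), KCNB2 (53.3), KCNC1 (45.6), KCNH7 (26.8), KCNK10 (26.7), KCNH8 (26.6), KCNAB2 (24.0) and KCNMB4 (23.7). KCNH2, KCNIP4 and KCNC1 were among the 10 highest members of both tables. Their levels in iMNs were above 82.6%, 78.3% and 82.9% of all genes, and in i3Ns above 81.7%, 77.4% and 73.3%. KCNK9, at 105 in iMNs, ranked 51 of 86 in i3Ns at a level of 0.833, and KCNK3 ranked 25 at 10.2.

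**Figure D1:**
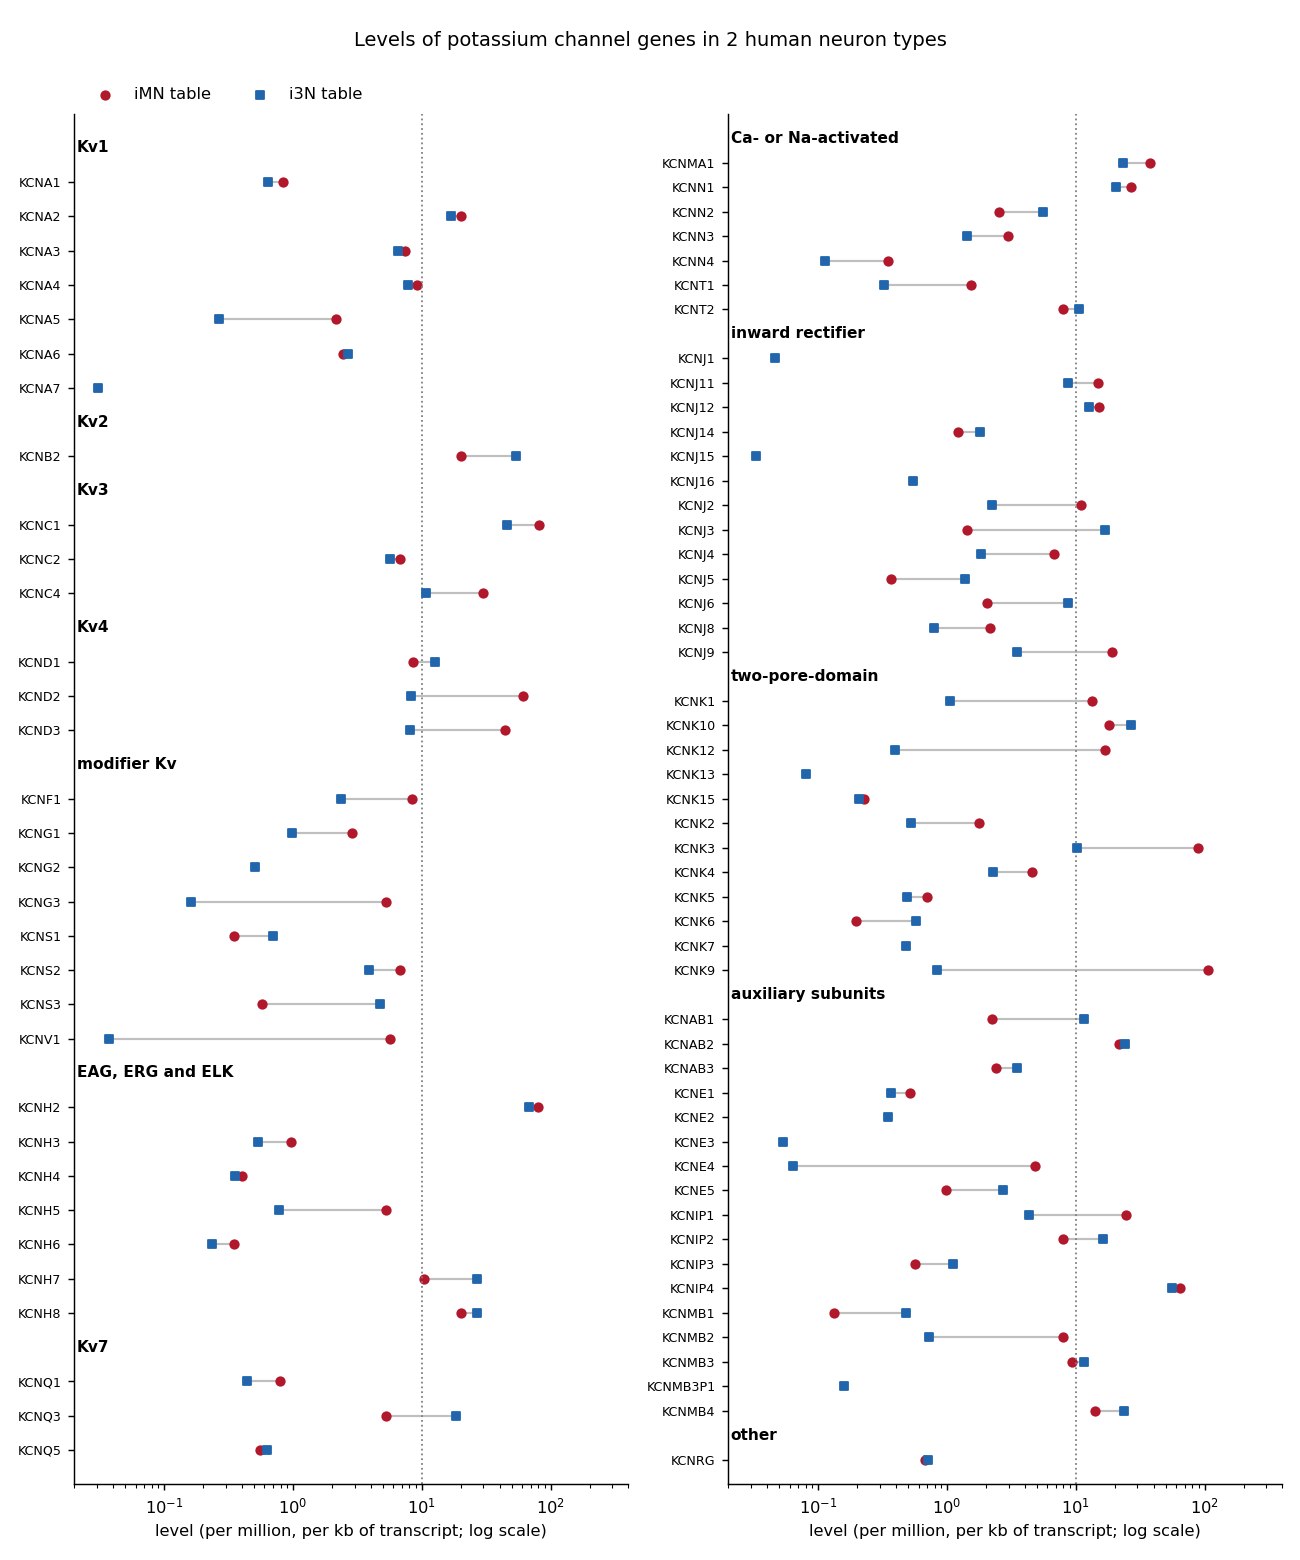
Levels of 82 potassium channel genes (mean normalized count per kb of transcript, scaled to a table sum of 1000000, log scale) in the iMN table (red circles) and the i3N table (blue squares), 1 mean over 6 libraries each, grouped by family; the dotted line marks a level of 10 and a single symbol marks a gene listed in the i3N table only. KCNH2 lies far right in both tables, at 79.5 and 67.9, and the widest gaps are those of KCNK9 (105 and 0.833) and KCNV1 (5.66 and 0.0374).

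Across the 56 members that passed the filter, more were higher in iMNs than in i3Ns. Past 4-fold, 16 members (28.6%) were higher in iMNs, where 4.4% of all genes were. In the other direction 4 members (7.14%) were higher in i3Ns, against 3.19% of all genes. The median log2 ratio of i3N over iMN was -0.37 for the members, with quartiles of -2.30 and 0.49, and 0.04 for all genes, with quartiles of -0.43 and 0.43. Within 2-fold lay 25 of the 56 members (44.6%) and 79.3% of all genes. Of the 56, 12 passed the filter through the iMN table alone and 6 through the i3N table alone. Passing through 1 table favours genes that differ without requiring it, as with KCNAB3 at means of 95.7 and 140. Among the 38 members with a mean of at least 100 in both tables, 7 (18.4%) were higher in iMNs and 1 (2.63%) in i3Ns, against 2.02% and 1.42% of all genes. The tables were normalized separately, so these shares describe 2 sets of means and not a tested difference.

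**Figure D2:**
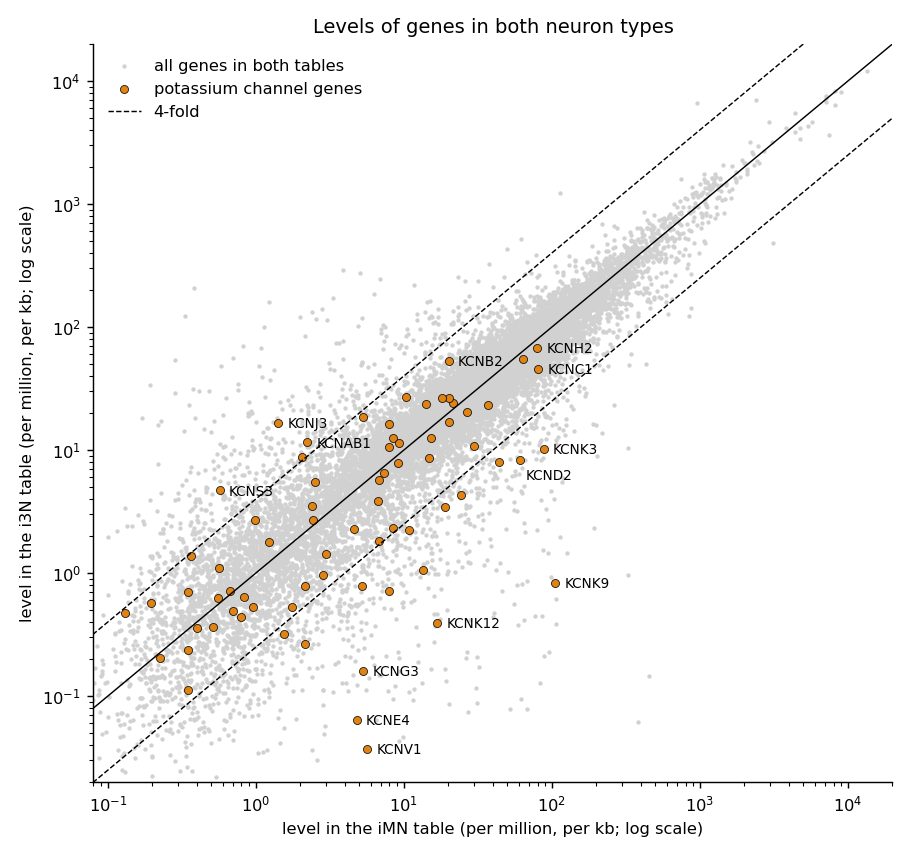
Levels of genes listed in both tables (scaled to 1000000 per table, per kb; both axes log) in iMNs (x axis) and i3Ns (y axis), with all genes in grey and potassium channel genes in orange; the solid line marks equal levels and the dashed lines 4-fold. KCNK9, KCNK12, KCNV1, KCNE4 and KCNG3 lie well under the lower dashed line and KCNJ3 and KCNS3 above the upper one, while KCNH2 and KCNC1 lie within 4-fold.

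The Kv1 (Shaker) family, low-threshold channels of the axon, had much the same level in both cell types. Its sum was 42.1 in iMNs and 34.8 in i3Ns. None of the 4 members with a ratio was past 4-fold. Few genes of any kind were, 4.4% of all genes toward iMNs and 3.19% toward i3Ns, so this count does not set the family apart. KCNA2, the Kv1.2 subunit, held the highest level, at 20.2 and 16.8. KCNA4 was at 9.09 and 7.80, KCNA3 at 7.40 and 6.56, and KCNA6 at 2.42 and 2.69. KCNA1, the Kv1.1 subunit mutated in episodic ataxia, was low in both, at 0.839 and 0.639. KCNA5 had a level of 2.14 in iMNs and 0.264 in i3Ns, but its means of 86.5 and 10.7 were under the filter. KCNA7 was listed in the i3N table only, with a mean of 1.78.

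The Kv2 (Shab) family carries the delayed rectifier current of the cell body. KCNB2, a pore subunit of this family, had a level of 20.1 in iMNs and 53.3 in i3Ns. Its log2 ratio was 1.35, which is short of 4-fold.

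Kv3 (Shaw) channels repolarize fast-spiking neurons. KCNC1, the Kv3.1 subunit, had levels of 80.8 in iMNs and 45.6 in i3Ns. KCNC4 was at 29.8 and 10.8, 2.86 times higher in iMNs. KCNC2 was at 6.81 and 5.67. The ratios of these 3 genes were within 4-fold.

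The Kv4 (Shal) family, which carries the fast A-type current of dendrites, was 3.92 times higher in iMNs by summed level, at 114 against 29.0. KCND2 (ENSG00000184408, GRCh38 chr7:120273175-120750337, plus strand) encodes Kv4.2 and had a mean normalized count of 4938 in iMNs and 672 in i3Ns. Its level was 61.0 against 8.30, a log2 ratio of -2.93. KCND3, which encodes Kv4.3, had levels of 44.2 and 8.06, a log2 ratio of -2.51. KCND1 went the other way within 4-fold, at 8.46 in iMNs and 12.6 in i3Ns, and was the highest Kv4 gene in i3Ns. Both KCND2 and KCND3 had means above 100 in both tables, so neither call rests on a mean under the filter.

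The partners of Kv4 channels were read beside them. KChIPs are calcium-binding proteins that bring Kv4 subunits to the surface, and DPP6 and DPP10 are transmembrane proteins that speed their gating. KCNIP1 was higher in iMNs, at a level of 24.5 against 4.31 and a log2 ratio of -2.55. KCNIP4 had the highest level of the KChIPs in both cell types, at 63.7 and 55.2. KCNIP2 was at 7.97 in iMNs and 16.3 in i3Ns, and KCNIP3, also known as a transcriptional repressor, was at 0.563 and 1.10 on means under the filter. DPP10 had a level of 14.5 in iMNs and 0.756 in i3Ns, a log2 ratio of -4.29. DPP6 had a level of 86.2 in iMNs and no row in the i3N table used here, so it has no ratio. Of the Kv4 subunits and partners with a ratio, KCND2, KCND3, KCNIP1 and DPP10 were past 4-fold higher in iMNs, where 4.4% of all genes were. KCND1, KCNIP2 and KCNIP4 were not. DPP10 passed the filter through the iMN table alone, on an i3N mean of 62.6.

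The modifier Kv subunits (Kv5, Kv6, Kv8 and Kv9) form no channel alone and alter the gating of Kv2 partners. Their levels were low, summing to 29.9 in iMNs and 13.3 in i3Ns, and none reached 10 in either table. They nevertheless held some of the widest ratios. KCNV1, the Kv8.1 subunit, had a mean of 543 in iMNs and 3.59 in i3Ns, a log2 ratio of -6.94. KCNG3, a Kv6 subunit, had means of 273 and 8.32 and a log2 ratio of -4.94. KCNS3, the Kv9.3 subunit, was higher in i3Ns, with means of 18.6 in iMNs and 153 in i3Ns and a log2 ratio of 2.91. Each of these 3 genes passed the filter through 1 table only, and the i3N mean of KCNV1 was under the lowest mean listed for iMNs, 7.73. KCNF1 was 3.70 times and KCNS2 1.81 times higher in iMNs, while KCNG1 and KCNS1 were under the filter and KCNG2 was listed in the i3N table only.

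The KCNH family (EAG, ERG and ELK channels) had nearly the same summed level in both, 117 in iMNs and 123 in i3Ns, without KCNH1, which has no level. KCNH2, the ERG1 channel that also repolarizes the heart, supplied 67.9% of it in iMNs and 55.1% in i3Ns, at levels of 79.5 and 67.9. KCNH7 and KCNH8, an ERG and an ELK channel, were at 10.4 and 20.2 in iMNs and at 26.8 and 26.6 in i3Ns. KCNH1 had a mean of 383 in iMNs and 985 in i3Ns, a log2 ratio of 1.30. KCNH5, the second EAG channel, ran the other way, with means of 817 and 123 and a log2 ratio of -2.78. The EAG pair thus had ratios of opposite sign, KCNH5 past 4-fold and KCNH1 not. KCNH3, KCNH4 and KCNH6 had levels under 1 in both tables.

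Kv7 channels carry the M-current, which dampens repetitive firing. KCNQ3, a subunit of neuronal M-channels, had a level of 5.30 in iMNs and 18.5 in i3Ns. Its means were 852 and 2982, a log2 ratio of 1.75, which is short of 4-fold. KCNQ5 and the cardiac and epithelial KCNQ1 had levels under 1 in both tables.

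Calcium- and sodium-activated channels shape the afterhyperpolarization. Their summed level was 79.2 in iMNs and 61.6 in i3Ns. KCNMA1, the BK channel, was at 37.3 and 23.3, and KCNN1, the SK1 channel, at 26.6 and 20.3. KCNN2, the SK2 channel, was at 2.53 in iMNs and 5.55 in i3Ns, and KCNN3, the SK3 channel, at 2.99 and 1.43. The sodium-activated channel KCNT2 was at 7.94 and 10.5. Its relative KCNT1 was the only gene of the group past 4-fold, with means of 153 in iMNs and 31.9 in i3Ns and a log2 ratio of -2.28. KCNT1 passed the filter through the iMN table alone, so it is no call with the filter on both tables. KCNN4, the channel of red cells and lymphocytes, had means of 9.43 and 3.06.

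Among inward rectifiers the G protein-gated channels (GIRK) had ratios in both directions. KCNJ3 (ENSG00000162989, GRCh38 chr2:154697855-154858354, plus strand) encodes GIRK1 and had a mean of 91.2 in iMNs and 1076 in i3Ns. This was 11.2 times higher in i3Ns and the largest ratio of any member in that direction, 3.49 on the log2 scale. KCNJ3 passed the filter through the i3N table alone, so it is no call with the filter on both tables. KCNJ6, which encodes GIRK2, was 4.10 times higher in i3Ns, with levels of 2.04 and 8.71, and fell short of 4-fold when the tables were scaled by the median ratio of shared genes. KCNJ9, which encodes GIRK3, was 5.66 times higher in iMNs, with levels of 18.9 and 3.46. KCNJ9 was 13.3 times KCNJ3 in iMNs and 0.206 times KCNJ3 in i3Ns. KCNJ5, the GIRK4 gene, was at 0.367 in iMNs and 1.39 in i3Ns, a log2 ratio of 1.83. It too passed the filter through the i3N table alone, on means of 30.9 and 117. GIRK1 needs a partner such as GIRK2 to reach the surface, and these are RNA values that say nothing of assembled channels.

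Of the other inward rectifiers with a ratio, KCNJ2 was past 4-fold and KCNJ4, KCNJ11 and KCNJ12 were not. KCNJ12, the Kir2.2 channel, was at 15.2 and 12.6. KCNJ2, the Kir2.1 channel that holds the resting potential of many cells, was at 10.9 in iMNs and 2.22 in i3Ns, a log2 ratio of -2.35. KCNJ4, the Kir2.3 channel, was at 6.77 and 1.83, short of 4-fold. KCNJ11, the pore of the ATP-sensitive channel, was at 14.8 in iMNs and 8.60 in i3Ns. Its regulatory subunit ABCC8 (SUR1) was at 26.4 and 3.58, a log2 ratio of -2.93. ABCC8 was thus 1.78 times KCNJ11 in iMNs and 0.416 times KCNJ11 in i3Ns. KCNJ8 and KCNJ14 were listed in both tables with means under 100, at levels of 2.16 and 1.22 in iMNs and 0.786 and 1.80 in i3Ns. KCNJ1, KCNJ15 and KCNJ16 were listed in the i3N table only, with means of 1.64, 3.84 and 30.3.

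The two-pore-domain family, the background or leak channels, differed most by summed level, at 249 in iMNs and 43.8 in i3Ns, 5.69 times higher in iMNs. It made up 23.0% of the summed level of the pore-forming members in iMNs and 6.39% in i3Ns. Of the 69 such members, each sum covers those with a level in that table, which leaves out KCNH1 from both. KCNK9, which encodes the acid-sensitive leak channel TASK-3, had a mean of 3502 in iMNs and 27.7 in i3Ns. This was the largest ratio of any member, 127 times higher in iMNs and -6.99 on the log2 scale. KCNK3 (ENSG00000171303, GRCh38 chr2:26692722-26733420, plus strand) encodes TASK-1, with which TASK-3 can pair, and had means of 7583 and 877, 8.99 times higher in iMNs.

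KCNK12, a THIK channel, had means of 3176 in iMNs and 74.7 in i3Ns, 43.6 times higher in iMNs. KCNK1, the TWIK-1 channel, had means of 384 and 30.2, 12.8 times higher in iMNs. The mechanosensitive channels KCNK10 (TREK-2) and KCNK4 (TRAAK) had ratios within 4-fold. KCNK10 was at 18.0 in iMNs and 26.7 in i3Ns, where it made up 61.0% of the family's level. KCNK4 was at 4.58 and 2.26, and KCNK2 (TREK-1) was at 1.76 and 0.525 with means under the filter. KCNK5, KCNK6 and KCNK15 had levels under 1 in both tables, and KCNK7 and KCNK13 were listed in the i3N table only, with means of 7.54 and 2.55. Of the 6 two-pore-domain genes with a ratio, 4 were past 4-fold higher in iMNs and 0 in i3Ns, against 4.4% and 3.19% of all genes. KCNK9, KCNK12 and KCNK1 passed the filter through the iMN table alone, so with a mean of at least 100 in both tables KCNK3 is the 1 call left.

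**Figure D3:**
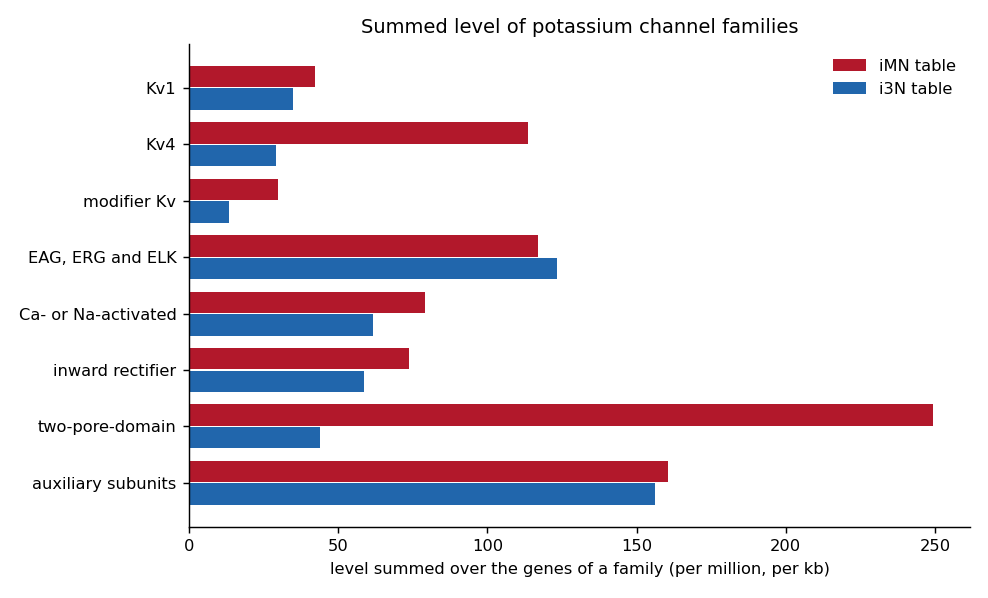
Summed level of 8 families (scaled to 1000000 per table, per kb; linear axis from 0) in the iMN table (red) and the i3N table (blue); bars are sums of the authors' means, without an error. The two-pore-domain bar is 249 in iMNs and 43.8 in i3Ns and the Kv4 bar 114 and 29.0. The KCNH bars (117 and 123, without KCNH1) and the auxiliary subunit bars (160 and 156) are nearly level.

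Auxiliary subunits had the same summed level within a few percent, 160 in iMNs and 156 in i3Ns, although single genes differed widely. Beside the KChIPs, KCNAB2, the main Kv1 beta subunit of brain, was at 21.4 and 24.0. KCNAB1, another Kv1 beta subunit, was at 2.23 in iMNs and 11.6 in i3Ns, a log2 ratio of 2.31, and KCNAB3 was at 2.40 and 3.50. KCNAB1 and KCNAB3 passed the filter through the i3N table alone, on iMN means of 97.4 and 95.7. The BK beta subunits were mixed in the same way. KCNMB4, the neuronal form, was at 14.0 in iMNs and 23.7 in i3Ns, and KCNMA1 was 2.65 times and 0.985 times its level. KCNMB2, which inactivates BK channels, was at 7.89 in iMNs and 0.717 in i3Ns, 11.0 times higher in iMNs by the mean. It passed the filter through the iMN table alone. KCNMB3 was at 9.27 and 11.5, and KCNMB1, the smooth muscle form, had means of 8.66 and 31.4.

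Most KCNE subunits, small proteins best known as partners of KCNQ1, had means under 100 in both tables. KCNE4 was the exception, with a mean of 194 against 2.59 in i3Ns, a log2 ratio of -5.82 that rests on an i3N mean near the lowest listed. KCNE5 had means of 20.2 and 55.1 and KCNE1 had 24.9 and 17.8, and KCNE2 and KCNE3 were listed in the i3N table only, at 5.15 and 2.27. KCNRG, a soluble regulator related to the Kv assembly domain, had means of 12.4 and 13.2.

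**Figure D4:**
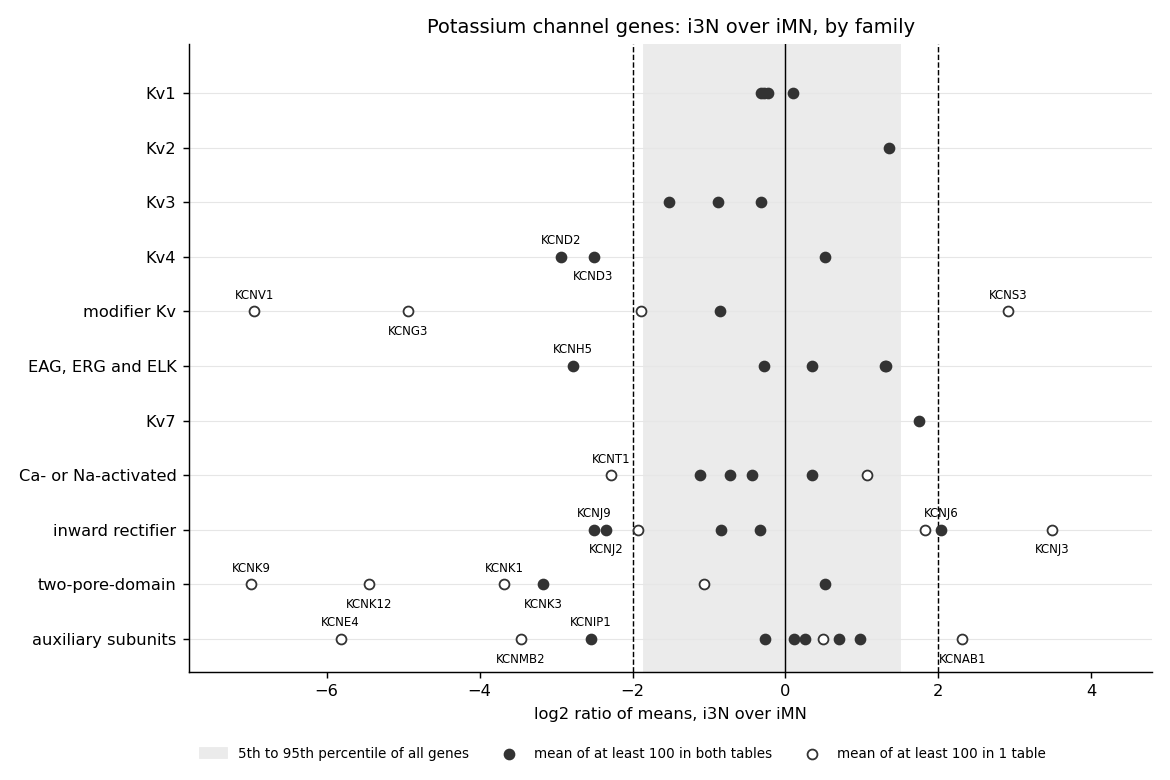
The log2 ratio of means, i3N over iMN, for 52 members with a mean of at least 100 in 1 table, by family; filled circles have such a mean in both tables and open circles in 1, the grey band spans the 5th to the 95th percentile of all genes (-1.86 to 1.50) and dashed lines mark 4-fold. The 15 members plotted left of the lower dashed line include KCNK9 (-6.99) and KCNV1 (-6.94), the 4 right of the upper one are KCNJ3, KCNS3, KCNAB1 and KCNJ6, and no Kv1 gene plotted passes either line.

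Members listed in 1 table were weakly expressed. All 10 were in the i3N table, with means from 1.64 to 30.3, and none was in the iMN table only. The i3N table was the longer one for all genes too. Of 18623 symbols listed in either table, 15899 were in the iMN table and 18390 in the i3N table. The lowest mean listed was 7.73 in the iMN table and 1.37 in the i3N table, and 12 of the members in the i3N table lay under the lowest iMN mean. Being listed in i3Ns only is therefore no measure of a difference. Another 21 members were listed in both tables with means under 100 in each, and they have no ratio in the counts above.

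A list of 40 genes whose products bind, anchor, regulate or work beside potassium channels was read in the same way. Of these, 37 were listed in iMNs and 36 in i3Ns, and their median log2 ratio over 36 genes was 0.00, against 0.04 for all genes. Past 4-fold, 3 were higher in iMNs (DPP10, ABCC8 and LGI3) and 3 in i3Ns (LGI1, CNTN2 and LRRC55), against 4.4% and 3.19% of all genes. LGI1, a secreted protein that acts on Kv1 complexes and is mutated in inherited epilepsy, was at 3.79 in iMNs and 40.0 in i3Ns, a log2 ratio of 3.33. CNTN2, a cell adhesion protein that gathers Kv1 channels beside the node, was at 17.0 and 119.8, and its partner CNTNAP2 at 19.9 and 36.1, within 4-fold. LRRC55, a BK gamma subunit, was at 6.94 and 29.3, and LGI3 at 16.8 and 2.64. High levels were seen for the calmodulin genes CALM2, at 1859 and 1643, and CALM3, at 1405 and 1080. ATP1B1, a beta subunit of the sodium pump, was at 848 in iMNs and 387 in i3Ns.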

How the data were processed

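RNA-seq libraries were made from total RNA after ribosomal RNA depletion. The authors ran fastp for trimming, Salmon for transcript abundance and DESeq2 for normalization and their comparison, and the submitters' processing notes also name STAR and hg38; versions are not given in the sources used here. Each deposited table gives a gene's mean normalized count, a signal averaged by the authors over 6 libraries, with no value per library. Its other columns hold the authors' log2 fold change, standard error, p-value and adjusted p-value for SMN-KD, and these comparisons were not used. Depth per library is unknown, so no interval, SD or test is given.

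Lengths and positions came from GENCODE 44 (MANE Select transcript, otherwise the longest). For 693 iMN and 878 i3N identifiers no length was found (1.69% and 1.65% of the summed means). Where a symbol had several identifiers, the one with the largest mean was used. Levels, ratios and thresholds are defined in the text. Computations used Python 3.11.15, pandas 2.3.3 and numpy 2.4.6 and were tested on simulated data.

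The members, gene lists and rules were chosen with earlier results of these data known. The genes named are the 10 highest members of each table, the 6 largest ratios in each direction past 4-fold, the members of each family described, and the 4 highest partners with those past 4-fold; a few other genes were named after their values were seen. A test on counts per library had been planned and could not be run on means. Some genes that this rule picks are not reported here, and protein sequences were not analysed.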

Additional observations from a re-analysis of the deposited data

How the results depend on the processing

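The counts depend on their thresholds. With a level of at least 5 in place of 10, 42 members passed in iMNs and 33 in i3Ns, and with at least 20, 17 and 12 did. With the filter on the mean in both tables, 7 members were higher in iMNs and 1 in i3Ns, against 2.02% and 1.42% of all genes. At 8-fold the counts were 8 and 1, and at 2-fold 21 and 10, where 79.3% of all genes lay within 2-fold. The shares of all genes at levels of 5 and 20 and at 8-fold were not computed. Those counts show only how far the number of members moves. Scaling by the median ratio of shared genes took KCNJ6 out of the i3N calls, a pseudocount of 10 left 15 iMN calls, and dropping the filter added KCNA5 to those reported. The median log2 ratio of the members stayed between -0.42 and -0.30 under the 6 alternatives run for it. Taking the longest transcript gave 28 members at a level of 10 in iMNs and 24 in i3Ns. Summing the identifiers of a symbol changed no count, nor did the length of the annotated gene of the same symbol for KCNH1, an alternative chosen after seeing the data. No paired analysis was possible because the tables hold 1 mean over 6 libraries and no value per replicate; leaving out replicates and count models were not run for the same reason. Genes near the lowest means listed, 7.73 in iMNs and 1.37 in i3Ns, have the least certain ratios.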
